A study of Mus musculus with 30 samples.

Results

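Cd68, Lyz2, Mrc1, Cd163, Itgam, Itgax, Trem2, Gpnmb and Ptprc, 9 genes commonly read as macrophage or leucocyte markers, were followed through aorta and kidney RNA from mice with a deletion of the epidermal growth factor receptor (EGFR) in vascular smooth muscle and from their controls. They were chosen by name from the 41128 genes of each count table. Each had 1 row in both tables, and 9 of 9 passed the filter on low counts in both tissues. In the edgeR fits 1 of 9 genes passed the adjusted threshold. This was Itgax, higher on a high-fat diet in the kidneys of control mice, a call that was lost in 8 of 16 fits with a library left out. Those 8 included every fit without a standard-diet control kidney and most fits without a high-fat control kidney. DESeq2, an alternative test, also called Itgax and Ptprc in the kidneys of mice with the deletion. There it called more genes in all than edgeR.

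The study asked whether EGFR in vascular smooth muscle shapes the response of aorta and kidney to a high-fat diet (HFD) against a standard diet (SFD). All mice were labelled as C57Bl6J and received tamoxifen at 1 mg per day for 5 days. KO mice carried Egfr flox/flox and the tamoxifen-inducible Smmhc-Cre (Smmhc is also named Myh11), whose promoter is active in smooth muscle. WT mice carried the same Cre without the floxed gene, so that Cre and tamoxifen were shared by every group. Mice were 6 weeks old when the HFD began, 7 days after tamoxifen, and stayed on it for 18 weeks. The aortae comprised 3 WT-SFD, 4 WT-HFD, 3 KO-SFD and 4 KO-HFD libraries, and the kidneys 4 libraries of each group. Macrophages do not express Smmhc, so the deletion was not directed at the cells whose markers are described here. The RNA came from whole tissue, in which fewer cells of a type and less RNA per cell cannot be told apart.

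Macrophages sit in every tissue and take up dying cells, debris and lipid through scavenger receptors, which they pass to lysosomes. In the aorta they lie mainly in the adventitia and the surrounding fat, and they become foam cells when loaded with lipid. In the kidney a network of mononuclear phagocytes, macrophages and dendritic cells with overlapping markers, surrounds the tubules. Cd68 encodes a lysosomal membrane glycoprotein, Lyz2 the lysozyme of myeloid cells and Gpnmb a glycoprotein of lipid-loaded macrophages that is also made by melanocytes. Mrc1 (the mannose receptor, CD206) and Cd163 (the haemoglobin scavenger receptor) mark resident macrophages. Trem2 is a lipid-sensing receptor that signals through the adaptor Tyrobp. Itgam (CD11b) and Itgax (CD11c) encode the alpha chains that pair with the beta 2 chain Itgb2, the former on macrophages, monocytes and neutrophils, the latter on dendritic cells and part of the macrophages. Ptprc (CD45) is a phosphatase on all leucocytes, lymphocytes included.

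Itgam (ENSMUSG00000030786, chromosome 7, 128062640 to 128118491) and Itgax (ENSMUSG00000030789, chromosome 7, 128129547 to 128150657) are neighbours on the plus strand of GRCm38. The bases just before their RefSeq starts are shown as a description, 5′ to 3′ on the plus strand of GRCm38.p6. They lie at chr7:128062520-128062634 for Itgam and chr7:128129430-128129544 for Itgax. Capitals mark GAGGAA or its reverse complement TTCCTC, a form of the site that PU.1 (Spi1), a factor of myeloid gene expression, can bind.
Itgam: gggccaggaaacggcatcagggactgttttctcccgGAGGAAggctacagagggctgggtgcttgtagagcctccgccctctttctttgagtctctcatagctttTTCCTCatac
Itgax: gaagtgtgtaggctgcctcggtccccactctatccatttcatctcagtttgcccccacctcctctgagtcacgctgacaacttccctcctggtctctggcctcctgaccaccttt
The Itgam stretch held this form 2 times and the Itgax stretch did not hold it. The shorter GGAA or TTCC within it also occurs unmarked in both stretches, and other forms of the site were not searched. Searched on both strands in windows from 250 bases before to 50 bases after a start, GAGGAA was present in 5 of 10 windows of the 9 genes (Cd68, Mrc1, Itgam, Trem2 and 1 of the 2 windows of Ptprc), against 28.3% of 32851 RefSeq windows. CATGTG, an E-box that factors of the Mitf and Tfe family can bind, was in 1 of 10 windows (Mrc1), against 14.2% of all windows. CACGTG, the palindromic E-box, was in 0 of 10, against 7.2% of all windows. The 3 motifs do not overlap each other. These matches describe letters in a window and do not show binding, and their part in the levels of the genes was not tested.

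The remaining genes were placed, by the GENCODE vM21 annotation of GRCm38, as follows. Cd68 (ENSMUSG00000018774) lies on chromosome 11, 69664213 to 69666153, and Lyz2 (ENSMUSG00000069516) on chromosome 10, 117277331 to 117282321. Mrc1 (ENSMUSG00000026712) lies on chromosome 2, 14229392 to 14332057, and Cd163 (ENSMUSG00000008845) on chromosome 6, 124304656 to 124330527. Trem2 (ENSMUSG00000023992) lies on chromosome 17, 48346401 to 48354147, Gpnmb (ENSMUSG00000029816) on chromosome 6, 49036546 to 49070929, and Ptprc (ENSMUSG00000026395) on chromosome 1, 138062861 to 138175708. Values count reads over exons of the whole gene, so they do not separate isoforms. Lyz2 has a near-identical neighbour, Lyz1, to which reads could be split; Lyz1 had a mean of 1.51 FPM in aorta and 0.683 FPM in kidney, against 54.6 and 56.8 FPM of Lyz2. In the annotation, 3450 exonic bases of Itgam are shared with Gm49368, a gene model on the same strand, so Itgam counts could depend on the annotation release.

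Depth was 6403699 to 13052870 counts per aorta library (median 8998366) and 16354880 to 28331314 per kidney library (median 19544128). Levels are given as FPM, counts per 1000000 after TMM scaling of the library total; 3 counts corresponded to 0.240 to 0.432 FPM in aorta and 0.103 to 0.190 FPM in kidney. Acta2, the smooth muscle actin, reached 4222 to 8730 FPM in the aortae, and Slc34a1, the phosphate transporter of the proximal tubule, 5890 to 10800 FPM in the kidneys, as the tissue labels say. Egfr, the targeted gene, reached 46.6, 39.4 and 54.2 FPM among aortae of WT-SFD, against 26.7, 35.4 and 27.9 FPM among those of KO-SFD. It was at 65.0, 56.9, 51.1 and 56.9 FPM in WT-HFD aortae and at 27.4, 40.5, 39.6 and 33.3 FPM in KO-HFD aortae. The genotypes did not overlap on either diet, although neither difference passed the adjusted threshold (adjusted p of 0.531 and 0.130, edgeR). In the kidney Egfr ranged from 36.9 to 60.8 FPM and its genotypes overlapped.

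Several aortae stood apart from the others. Library KO-SFD-1319 (libraries are named by genotype, diet and the number in their label) and library KO-HFD-1503 had the highest Ptprc, Itgam and Itgax. KO-SFD-1319 and WT-HFD-1442 had the most RNA of T and B cell markers, with sums of 56.2 and 44.7 FPM. Adipocyte markers summed to 3280 and 2130 FPM in WT-SFD-1309 and WT-SFD-1310, to 1810 and 689 FPM in KO-SFD-1319 and KO-SFD-1452, and to between 77.3 and 217 FPM in the other 10 aortae. In the kidneys the most T and B cell marker RNA was in KO-HFD-1504 (100 FPM) and WT-SFD-1694 (47.4 FPM).

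**Figure D1:**
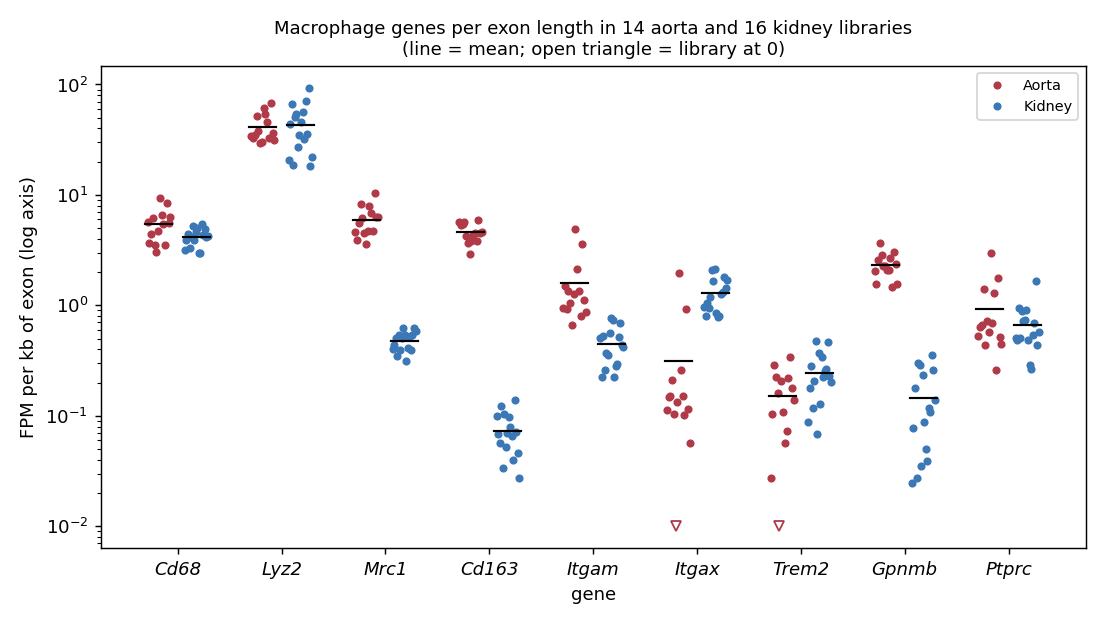
Levels of the 9 genes in FPM per kb of exon (log axis) in 14 aorta (red) and 16 kidney (blue) libraries; each point is a library, the line is the mean over all libraries of the tissue and an open triangle marks a library at 0. Lyz2 was highest in both tissues, whereas Cd163, Mrc1 and Gpnmb lay far lower in kidney and Itgax lay higher.

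Per exon length the order of the genes differed between the tissues. In the aorta Lyz2 led with 41.5 ± 12.4 FPM per kb (mean ± SD, n = 14). Mrc1 (5.98 ± 1.87), Cd68 (5.46 ± 1.86) and Cd163 (4.62 ± 0.893) followed, and neighbours among these 3 differed by less than the larger SD of the pair. Gpnmb lay further below Cd163 than the larger SD. Gpnmb (2.33 ± 0.617), Itgam (1.61 ± 1.21), Ptprc (0.922 ± 0.724), Itgax (0.316 ± 0.520) and Trem2 (0.152 ± 0.0992) closed the order, each within the larger SD of its neighbour among these 5. In the kidney Lyz2 also led with 43.2 ± 21.4 FPM per kb (n = 16), followed by Cd68 at 4.18 ± 0.781. Itgax came next at 1.30 ± 0.458, before Ptprc (0.666 ± 0.335), Mrc1 (0.479 ± 0.0971), Itgam (0.449 ± 0.178), Trem2 (0.243 ± 0.121), Gpnmb (0.145 ± 0.110) and Cd163 (0.0732 ± 0.0319). From Ptprc to Itgam, and from Trem2 to Cd163, neighbours again lay within the larger SD of each other.

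Cd163, Mrc1 and Gpnmb were higher in the aortae, and Itgax in most kidneys. Cd163 was at 16 to 32.4 FPM in the aortae and at 0.151 to 0.759 FPM in the kidneys, where it rested on 3 to 15 counts per library. Mrc1 was at 22.9 to 65.5 FPM in the aortae and at 1.99 to 3.99 FPM in the kidneys, and Gpnmb at 9.52 to 24.0 FPM and 0.163 to 2.29 FPM. For these 3 genes the lowest aorta lay above the highest kidney. Itgax ran the other way: 12 of 14 aortae were at 1.25 FPM or less, with KO-SFD-1319 at 9.35 and KO-HFD-1503 at 4.50 FPM, whereas the kidneys were at 3.77 to 10.3 FPM. Itgam had means of 8.07 FPM in aorta and 2.26 FPM in kidney, and the lowest aorta (3.33 FPM) lay below the highest kidney (3.87 FPM). Lyz2, Cd68, Ptprc and Trem2 also overlapped between the tissues, with means of 54.6 and 56.8, 6.87 and 5.25, 16.9 and 12.2, and 0.754 and 1.2 FPM in aorta and kidney. Summed over the 9 genes, the aortae held 118 to 275 FPM (median 151) and the kidneys 47.6 to 180 FPM (median 85.0). No test was made, because the tables were normalised separately and tissue cannot be told apart from sequencing site, a university facility for aortae and a commercial provider for kidneys. Genes of small RNA classes took 18.4 to 43.1% of the counts in the aortae and 0.0425 to 0.126% in the kidneys, and these counts are part of the totals behind FPM.

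**Figure D2:**
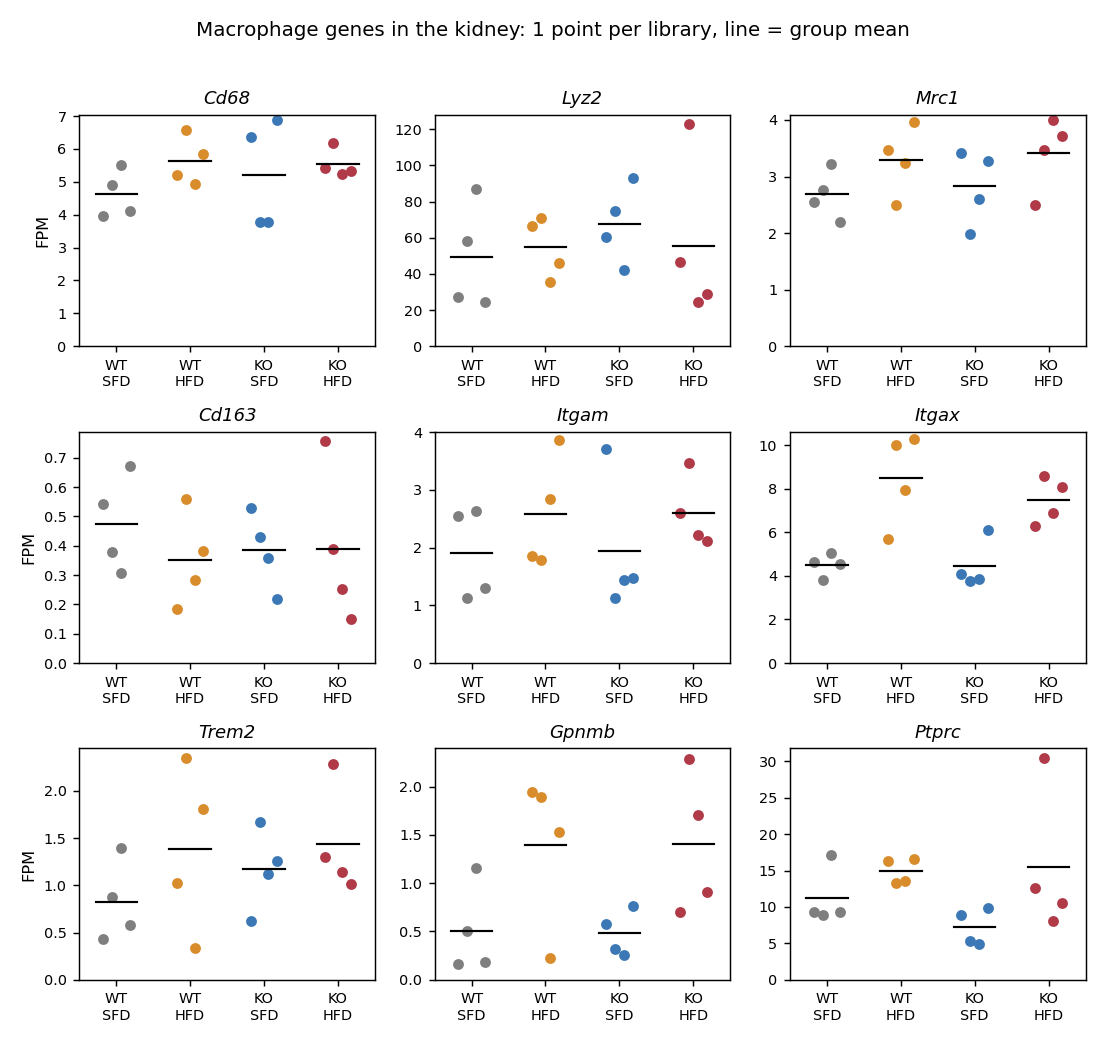
FPM of the 9 genes in the 16 kidney libraries by group; each point is a library and the line the group mean. Itgax is the gene whose HFD and SFD points do not overlap in either genotype.

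In the kidney Itgax rose on HFD in WT, and the remaining 8 genes did not pass the test. Itgax, the CD11c chain, was at 4.66, 3.83, 5.03 and 4.53 FPM in WT-SFD kidneys and at 5.69, 10.0, 7.95 and 10.3 FPM in WT-HFD kidneys. The lowest HFD kidney lay above the highest SFD kidney. The log2 fold change was 0.90 (SE 0.197; 95% CI 0.48 to 1.32), an increase of 1.86-fold with an adjusted p of 0.0357 (edgeR quasi-likelihood test, Benjamini-Hochberg over 15034 genes). Itgax was thereby 1 of 9 genes called, against 0.964% of all genes tested, and 1 of 9 without overlap, against 5.02%. At an unadjusted p under 0.05 there were 2 of 9, Itgax and Gpnmb, against 8.05%.

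In KO kidneys Itgax was at 4.10, 3.77, 3.88 and 6.11 FPM on SFD and at 6.29, 8.60, 6.90 and 8.09 FPM on HFD. The groups again did not overlap, with KO-SFD-1451 close to the lowest HFD kidney. The log2 fold change was 0.75 (SE 0.203; 95% CI 0.32 to 1.18), with a p of 0.00185 and an adjusted p of 0.0653, so that 0 of 9 genes passed in KO, against 2.39% of all genes. Itgax was 1 of 9 genes without overlap, against 8.87%. At an unadjusted p under 0.05 there were 3 of 9 (Itgax, Gpnmb and Ptprc), against 16.1%. DESeq2 called Itgax (adjusted p 0.0157) and Ptprc (adjusted p 0.0499). In this comparison DESeq2 also called more of all genes than edgeR, with the counts given in the last section. The diet effect on Itgax did not pass a test of its difference between genotypes: KO minus WT was -0.15 on the log2 scale (SE 0.284; 95% CI -0.75 to 0.46; adjusted p 1.00). For this difference 0 of 9 genes passed, at the adjusted threshold (0% of all genes) and at an unadjusted p under 0.05 (3.35%) in edgeR, and 0 in DESeq2.

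The Itgax call in WT was sensitive to single kidneys. It was lost in 8 of 16 fits with a library left out, namely WT-SFD-1309, WT-SFD-1446, WT-SFD-1694, WT-SFD-1695, WT-HFD-1613, WT-HFD-1641, WT-HFD-1642 or KO-HFD-1558, while the log2 fold change stayed between 0.79 and 1.05 over all 16. The WT kidneys alone form this comparison, and among them the call held only when WT-HFD-1535 was left out. KO kidneys enter it only through the shared fit. The adjusted p over all 16 edgeR fits ran from 0.00754 to 0.142. Without WT-SFD-1694 and KO-HFD-1504, the kidneys richest in lymphocyte markers, the log2 fold change was 0.96 with an adjusted p of 0.0698 in WT, and 0.67 with an adjusted p of 0.178 in KO.

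Gpnmb followed the diet less evenly. It was at 0.163, 0.502, 1.16 and 0.179 FPM in WT-SFD and at 1.94, 1.89, 0.227 and 1.53 FPM in WT-HFD kidneys. In 3 of 4 WT-HFD kidneys it was above all WT-SFD kidneys, while WT-HFD-1641 lay within their range. In KO it was at 0.578, 0.323, 0.255 and 0.764 FPM on SFD and at 0.705, 2.29, 1.71 and 0.905 FPM on HFD, with an overlap of KO-HFD-1437. The log2 fold changes were 1.34 (SE 0.585) and 1.56 (SE 0.626), with adjusted p of 0.549 and 0.228 (edgeR), from 3 to 53 counts per library. Without the kidneys richest in lymphocyte markers, WT-SFD-1694 and KO-HFD-1504, the value in WT was 2.41 (adjusted p 0.145) and that in KO 1.15 (adjusted p 0.458).

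Ptprc was at 9.26, 8.92, 17.2 and 9.27 FPM in WT-SFD and at 16.3, 13.3, 13.6 and 16.6 FPM in WT-HFD kidneys. In WT the single high SFD kidney was WT-SFD-1694, which also had much lymphocyte marker RNA; the log2 fold change in WT was 0.40 (adjusted p 0.905, edgeR), and 0.71 (adjusted p 0.680) without it. In KO it was at 8.96, 5.33, 4.90 and 9.88 FPM on SFD and at 12.6, 30.5, 8.10 and 10.5 FPM on HFD. The highest value came from KO-HFD-1504, the kidney with 77.1 FPM of B cell markers, where the other 15 kidneys had 3.68 to 35.3 FPM. The log2 fold change in KO was 1.11 (SE 0.362; adjusted p 0.133, edgeR), and 0.51 (adjusted p 0.463) without KO-HFD-1504. The part of lymphocytes in the Ptprc values was not tested beyond leaving these libraries out.

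The other 6 genes overlapped between diets in both genotypes. Cd68 ranged from 3.77 to 6.88 FPM over the kidneys and Mrc1 from 1.99 to 3.99 FPM, with log2 fold changes on HFD of 0.28 and 0.29 in WT and of 0.10 and 0.27 in KO. Itgam, from 1.13 to 3.87 FPM, had log2 fold changes of 0.40 in WT (95% CI -0.39 to 1.19) and 0.42 in KO (95% CI -0.39 to 1.22). The interval of Itgam thus included the size of the Itgax change. Trem2 ranged from 0.341 to 2.35 FPM, with log2 fold changes of 0.68 in WT and 0.35 in KO. The WT value was 1.17 (edgeR adjusted p 0.619) without WT-SFD-1694, and the KO value was -0.02 without KO-HFD-1504. Lyz2 varied most in absolute terms, from 24.2 FPM in KO-HFD-1520 to 123 FPM in KO-HFD-1504 within a single group. The log2 fold change of Lyz2 in WT was 0.15, and 0.59 (adjusted p 0.869, edgeR) without WT-SFD-1694. In KO its log2 fold change was -0.27 (adjusted p 0.813, edgeR), and -1.03 (adjusted p 0.281) without KO-HFD-1504. Cd163 differed between diets by -0.41 (WT) and 0.00 (KO) on the log2 scale. In either genotype 8 of 9 genes had a log2 fold change above 0, that of Cd163 in KO by less than 0.01, and the median of the 9 was 0.40 (WT) or 0.35 (KO), where all genes tested had -0.00 in both. Without KO-HFD-1504 it was above 0 for 6 of 9 genes in KO. In WT the medians of other leucocyte lists were 0.47 for T cell, 0.66 for neutrophil, -0.13 for B cell, -0.13 for dendritic cell and -0.01 for natural killer cell markers. In KO they were 0.98, 0.54, 1.58, 0.26 and 0.05 in the same order, and their part in the values of the 9 genes was not tested.

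**Figure D3:**
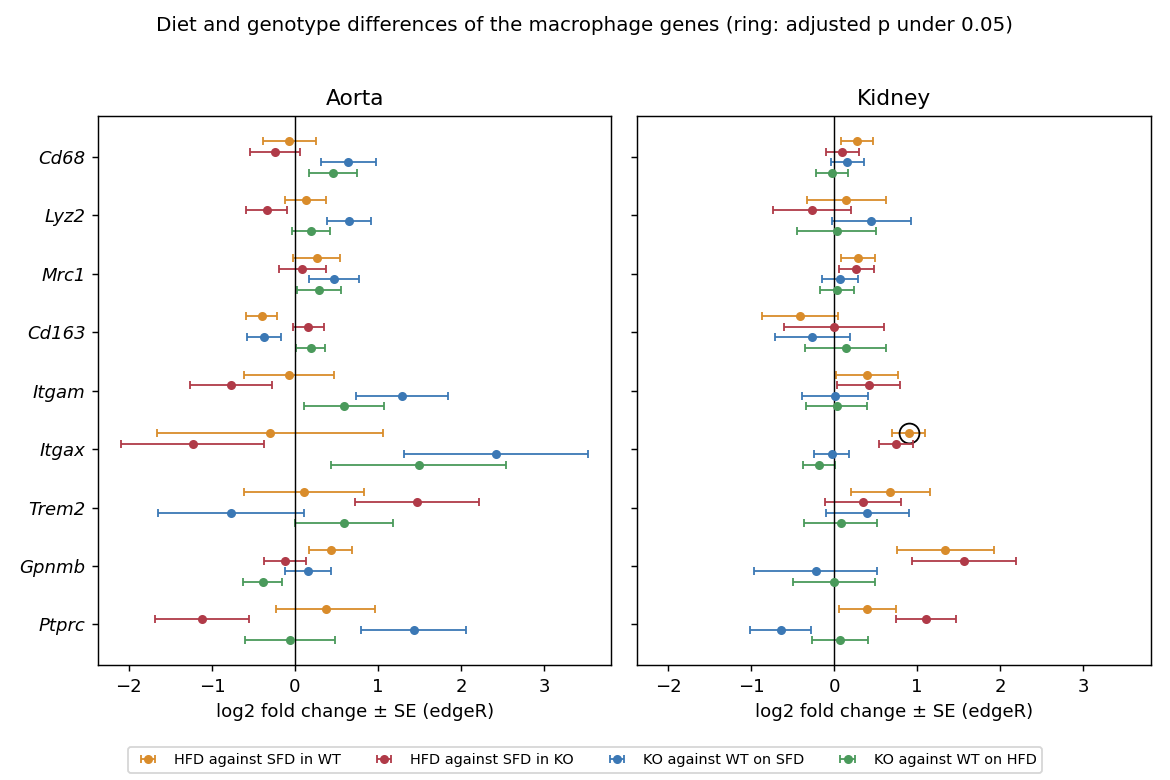
Log2 fold changes (points) with their standard errors (bars) from the edgeR fit of each tissue, for HFD against SFD in each genotype and for KO against WT on each diet. The ring marks the single adjusted p under 0.05, Itgax in WT kidney (0.90); the aortic value of Itgax for KO against WT on SFD is larger (2.42) but has a standard error of 1.11.

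Genotype did not separate the genes in the kidney. On SFD 0 of 9 genes passed, against 0.0133% of all genes, 0 of 9 had an unadjusted p under 0.05, against 8.69%, and 0 of 9 did not overlap, against 4%. On HFD the same counts were 0 of 9 against 0%, 0 of 9 against 1.75% and 0 of 9 against 1.32%. DESeq2 called 0 of 9 in both. Single kidneys moved these differences. On SFD Ptprc had a log2 fold change of -0.64 (SE 0.367; 95% CI -1.42 to 0.14), and of -0.33 (adjusted p 0.814, edgeR) without WT-SFD-1694. Without that kidney Lyz2 went from 0.45 to 0.89, Trem2 from 0.40 to 0.89 and Gpnmb from -0.22 to 0.84, with adjusted p of 0.634, 0.665 and 0.797. On HFD, leaving out KO-HFD-1504 took Lyz2 from 0.03 to -0.72 and Ptprc from 0.07 to -0.52 (adjusted p 1.00 for both), and the genes with a value above 0 from 6 to 2 of 9. Itgax differed by -0.03 on SFD (95% CI -0.48 to 0.42) and by -0.18 on HFD (95% CI -0.58 to 0.22). Its diet effect in WT was 0.90, with a 95% CI of 0.48 to 1.32. In absolute size that interval overlapped the genotype interval on HFD, and the sizes of these effects were not compared by a test.

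Other macrophage genes of the kidney were read from lists. In WT, 0 of 17 tested genes of macrophage identity passed on HFD, and 17 of 17 were higher. Among them were Csf1r, the receptor of the macrophage growth factor, and the complement genes C1qa, C1qb and C1qc. The median log2 fold change of the 17 was 0.48, against -0.00 over all genes. At an unadjusted p under 0.05 (edgeR) there were 7 of 17, against 8.05% of all genes. Mpeg1, a pore-forming protein of phagocytes, came closest: it was at 12.8, 13.8, 18.7 and 12.7 FPM in WT-SFD and at 25.8, 20.5, 23.5 and 23.0 FPM in WT-HFD kidneys, without overlap (log2 fold change 0.67, adjusted p 0.113). In KO 0 of 17 passed, 15 of 17 were higher and the median was 0.18. There 6 of 17 had an unadjusted p under 0.05 (edgeR), against 16.1% of all genes. Mpeg1 had a log2 fold change of 0.67 (edgeR adjusted p 0.0707), and Csf1r of -0.29 (edgeR adjusted p 0.223).

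Among genes of lipid-associated macrophages 1 of 16 rose in WT, against 0.964% of all genes called in either direction, and 2 of 16 rose and 1 of 16 fell in KO, against 2.39%. The same shares apply to the kidney lists that follow. Apoe, the apolipoprotein that carries lipid out of cells and is also made by kidney cells other than macrophages, rose from 290, 463, 321 and 274 FPM in WT-SFD to 1321, 1927, 1292 and 1210 FPM in WT-HFD kidneys (log2 fold change 2.09, SE 0.220, adjusted p 1.7e-04). In KO it rose by 1.61 on the log2 scale (SE 0.217, adjusted p 5.9e-04). Lipa, the lysosomal acid lipase, rose in KO (log2 fold change 0.89, adjusted p 0.00273), and its value in WT was 0.46 (adjusted p 0.256). Lpl, the lipoprotein lipase of many cell types, fell in KO (log2 fold change -1.07, adjusted p 0.0423), with -1.07 in WT as well (adjusted p 0.0762). The list medians were -0.03 in WT and 0.08 in KO.

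In the list of resident macrophages 0 of 13 passed in WT, where 11 of 13 were higher on HFD (median log2 fold change 0.22). In KO 1 of 13 rose, while 9 of 13 were lower and the median was -0.07. The gene that rose was Gas6, the ligand of the receptor Mertk, at means of 445 and 636 FPM on SFD and HFD (adjusted p 0.0469). Of the inflammatory genes 0 of 10 passed in either genotype (medians 0.39 in WT and 0.08 in KO), with Il1b at a log2 fold change of 0.53 (adjusted p 0.605) in WT and Nlrp3 at 1.06 (adjusted p 0.261) in KO. Of the genes that encode partners of the 9 proteins 0 of 12 passed (medians 0.24 and 0.20). Itgb2, the beta chain that CD11c and CD11b share, was at 6.45, 6.78, 9.52 and 5.73 FPM in WT-SFD and at 9.57, 10.4, 10.8 and 13.3 FPM in WT-HFD kidneys, a log2 fold change of 0.62 (adjusted p 0.318) that rests on groups parted by 0.05 FPM at their nearest.

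Markers of other cells that carry CD11c were read beside Itgax. Of 8 dendritic cell markers 6 were tested, and Zbtb46 was the most abundant with a mean of 8.65 FPM. Xcr1 lies on chromosome 9, whose genes were all listed at 0, so its level could not be read. In WT 0 of 6 passed on HFD, with a median log2 fold change of -0.13. In KO 1 of 6 rose, Clec9a, a receptor of cross-presenting dendritic cells, from 1.45, 1.35, 1.38 and 1.69 FPM to 2.87, 3.28, 2.09 and 2.46 FPM (log2 fold change 0.89, adjusted p 0.0258). The dendritic list summed to 15.9, 14.2, 17.4 and 17.2 FPM in WT-SFD, to 18.3, 15.0, 16.5 and 16.3 FPM in WT-HFD, to 17.0, 13.7, 17.0 and 15.5 FPM in KO-SFD and to 17.9, 21.6, 14.7 and 15.9 FPM in KO-HFD kidneys. The part of dendritic cells, whose markers overlap with those of macrophages, in the Itgax values was not tested further. Of the natural killer cell markers 0 of 3 passed in either genotype, with medians of -0.01 in WT and 0.05 in KO. Of the T cell markers 0 of 6 passed, with 6 of 6 higher on HFD in WT and 5 of 6 in KO. Of the B cell markers 0 of 7 passed, with 2 of 7 higher in WT (median log2 fold change -0.13) and 7 of 7 in KO, where 3 of 7 had an unadjusted p under 0.05, against 16.1% of all genes. Neutrophils, which carry CD11b, had 3 tested markers of which 0 passed and 3 of 3 were higher in both genotypes. Csf3r was the most abundant at a mean of 1.23 FPM. Ngp and Camp, also on chromosome 9, could not be read. Melanocytes, which make Gpnmb, had 1 tested marker, Pmel, at a mean of 0.875 FPM and with a log2 fold change on HFD of -0.25 (WT) and 0.24 (KO), neither of which passed. Of 11 adipocyte markers 0 passed in WT, where 8 of 11 were lower on HFD (median log2 fold change -0.32). In KO 10 of 11 were lower (median -0.69) and 0 of 11 fell, while Lep, the hormone leptin, rose (log2 fold change 4.91, edgeR adjusted p 0.0158). Of the proximal tubule markers 1 of 7 rose in WT and 2 of 7 in KO. Of the podocyte markers 0 of 5 passed in either genotype. In KO 5 of 5 podocyte markers were higher (median 0.47), 4 of 5 with an unadjusted p under 0.05 (edgeR). In WT 2 of 5 were higher (median -0.00).

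**Figure D4:**
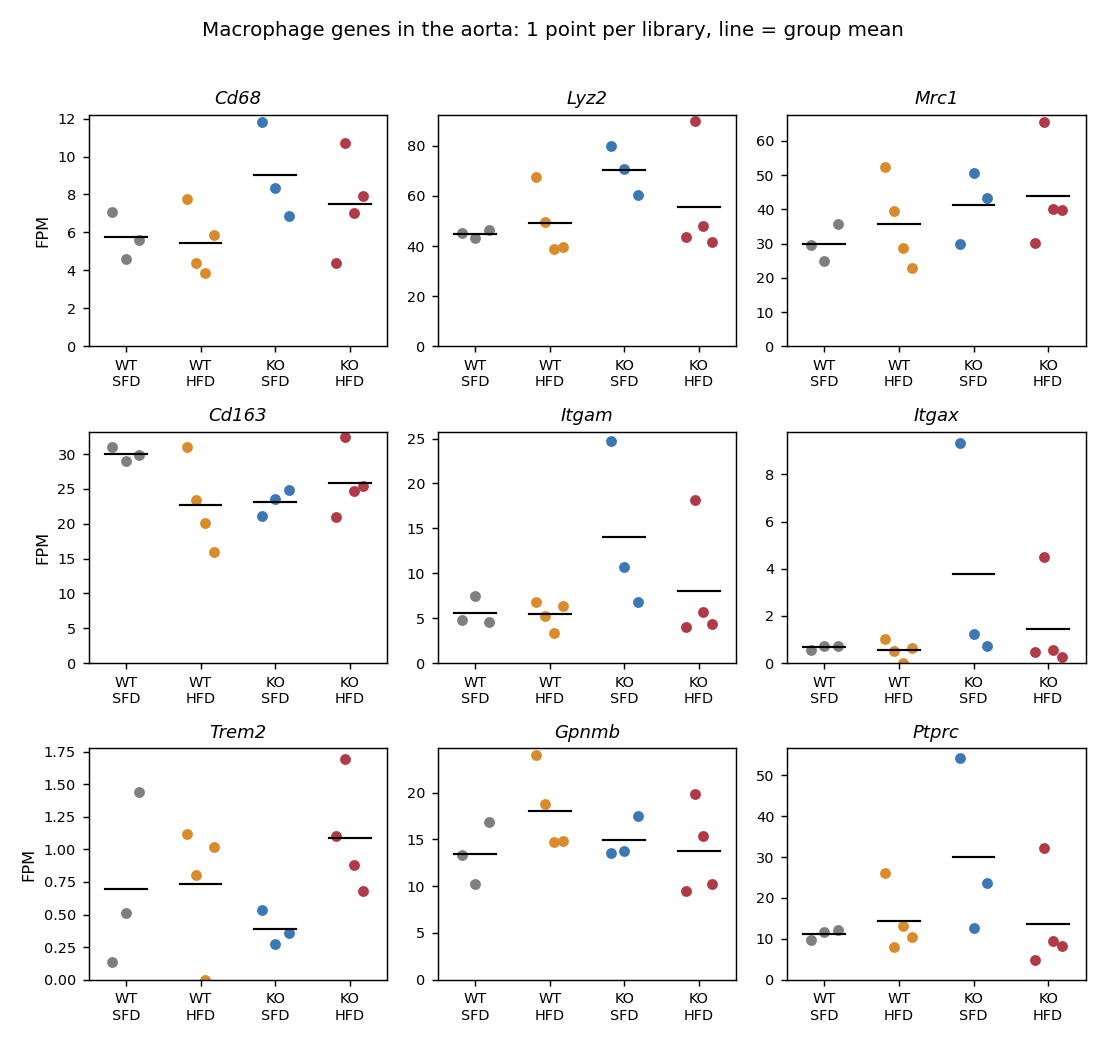
FPM of the 9 genes in the 14 aorta libraries by group; each point is a library and the line the group mean. The top KO-SFD points of Itgam (24.7), Itgax (9.35) and Ptprc (54.1) are a single library, and the top KO-HFD points of the same genes are another.

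In the aorta no gene of the 9 passed the adjusted threshold in any comparison. For HFD against SFD in WT, 0 of 9 were called (0% of all genes, edgeR) and 0 by DESeq2, 1 of 9 had an unadjusted p under 0.05 against 17.0%, and 0 of 9 did not overlap against 8.98%. That gene was Cd163, at 31, 29.0 and 29.8 FPM on SFD and at 31, 23.4, 20.1 and 16 FPM on HFD. Of the 4 WT-HFD aortae 3 lay below all WT-SFD aortae, and WT-HFD-1442 lay level with the highest of them. The log2 fold change was -0.40 (SE 0.187; 95% CI -0.80 to -0.00; adjusted p 0.287), and -0.59 (adjusted p 0.0948) without WT-HFD-1442 and KO-SFD-1319. In KO aortae Cd163 was at 21.1, 23.5 and 24.8 FPM on SFD and at 20.9, 32.4, 24.7 and 25.4 FPM on HFD, a log2 fold change of 0.16 (SE 0.189). The difference of the diet effect, KO minus WT, was 0.56 (SE 0.267, edgeR adjusted p 0.998). Markers of other cells were lower on HFD in the same aortae. Of the adipocyte markers 11 of 11 were lower in WT (median log2 fold change -3.64) and in KO (median -3.29). In each genotype 10 of 11 had an unadjusted p under 0.05 (edgeR) and 0 passed. Of the markers of lymphatic and sinusoidal endothelium 4 of 5 were lower in WT (median -1.14) and 5 of 5 in KO (median -0.83), and 0 passed.

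For HFD against SFD in KO, 0 of 9 genes were called (0% of all genes; 0 by DESeq2), 0 of 9 had an unadjusted p under 0.05 against 7.85%, and 1 of 9 did not overlap against 7.04%. That gene was Trem2, at 0.534, 0.278 and 0.362 FPM on SFD and at 1.10, 1.69, 0.878 and 0.683 FPM on HFD. These values came from 2 to 18 counts per library, and the log2 fold change was 1.47 (SE 0.743; adjusted p 0.654), and 1.16 (adjusted p 0.770) without KO-HFD-1503. Without that aorta Lyz2, Itgam and Ptprc had an unadjusted p under 0.05, 3 of the 8 genes still tested (Itgax did not pass the count filter), against 8.07% of all genes in that fit. Their log2 fold changes were -0.67, -1.56 and -2, each with an adjusted p of 0.514 (edgeR), against -0.34, -0.77 and -1.12 with all libraries. Without KO-SFD-1319 in its place they were -0.23, -0.07 and -0.40. Lymphocyte markers were also lower with all libraries. Of the B cell markers 7 of 7 were lower on HFD in KO (median log2 fold change -1.79), 6 of 7 with an unadjusted p under 0.05, and of the T cell markers 7 of 7 were lower (median -1.07), 2 of 7 with such a p, and 0 of either passed. Gpnmb, at 9.52 to 24.0 FPM over all aortae, differed between diets by 0.43 (WT) and -0.12 (KO) on the log2 scale. For the difference of the diet effect between genotypes 0 of 9 passed (0% of all genes; 0 by DESeq2), and 0 of 9 had an unadjusted p under 0.05 against 4.37%.

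For KO against WT on SFD, 0 of 9 genes were called (0.0811% of all genes; 0 by DESeq2), 4 of 9 had an unadjusted p under 0.05 (Lyz2, Itgam, Itgax and Ptprc) against 6.54%, and 4 of 9 did not overlap (Lyz2, Itgax and Ptprc higher, Cd163 lower in KO) against 8.57%. Lyz2 was at 45.3, 43.0 and 46.3 FPM in WT and at 80.0, 70.9 and 60.4 FPM in KO, where all 3 libraries were clear of the WT range. Its log2 fold change was 0.65 (SE 0.264; adjusted p 0.724). Ptprc was at 9.67, 11.8 and 12.1 FPM in WT and at 54.1, 12.6 and 23.7 FPM in KO, and Itgax at 0.545, 0.716 and 0.721 FPM in WT and at 9.35, 1.25 and 0.724 FPM in KO. The nearest Itgax values differed by less than the worth of a single count. Itgam was at 4.77, 7.47 and 4.61 FPM in WT and at 24.7, 10.7 and 6.78 FPM in KO, with an overlap.

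The size of the integrin and CD45 differences rested on a single aorta. With all libraries the log2 fold changes were 1.29 for Itgam (SE 0.558), 2.42 for Itgax (SE 1.11) and 1.43 for Ptprc (SE 0.630), with adjusted p of 0.740, 0.756 and 0.750. Without KO-SFD-1319 they were 0.60, 0.50 and 0.72, and 0 of 9 genes had an unadjusted p under 0.05, against 11.9% of all genes in that fit. Lyz2 moved less, to 0.55 with an unadjusted p of 0.0801. Cd163 and Trem2 had values below 0 in this comparison. That of Cd163 was -0.37 (SE 0.202; adjusted p 0.770), and -0.31 without KO-SFD-1319. That of Trem2 was -0.77 (SE 0.882; adjusted p 0.885), and -1 without KO-SFD-1319, with groups that overlapped.

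**Figure D5:**
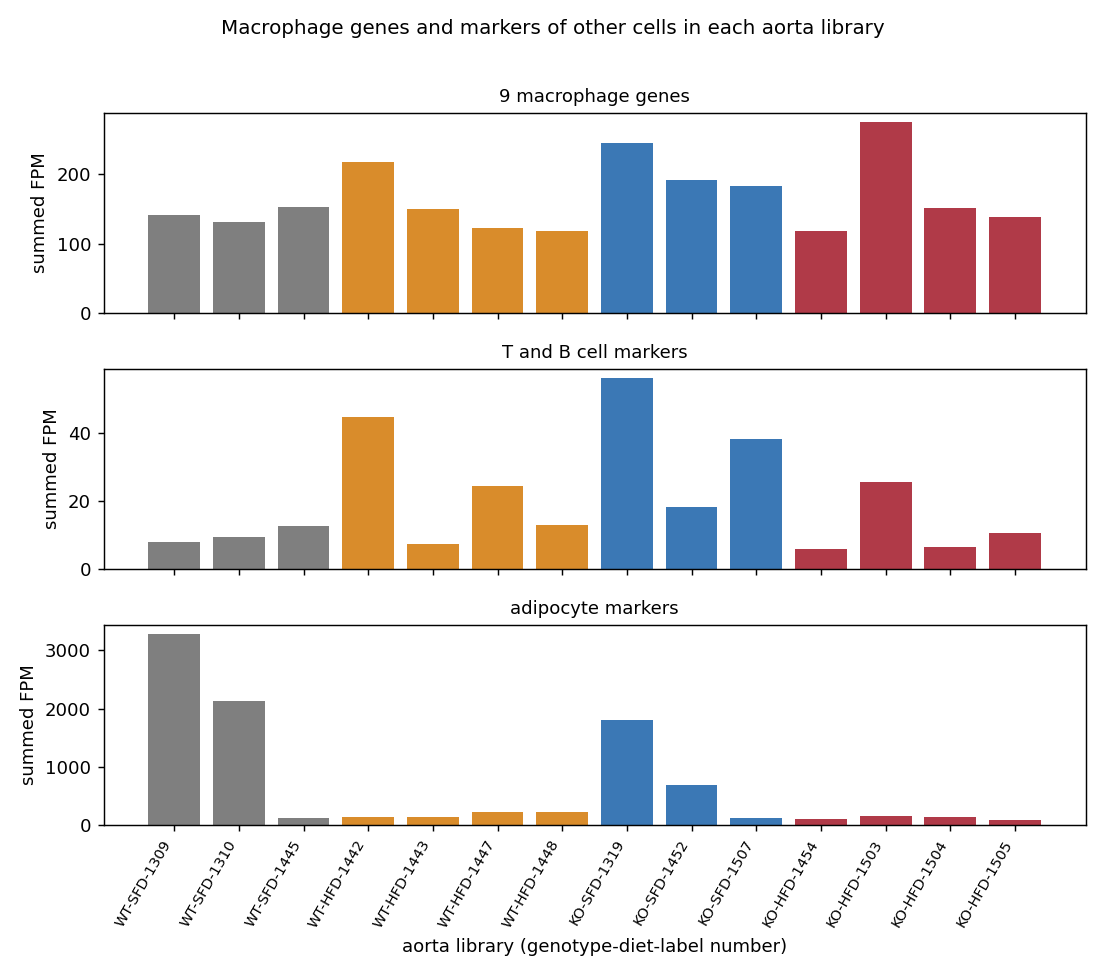
Summed FPM of the 9 macrophage genes, of T and B cell markers and of adipocyte markers in each aorta library, coloured by group (grey WT-SFD, orange WT-HFD, blue KO-SFD, red KO-HFD). The macrophage genes peak in KO-HFD-1503 (275 FPM) and KO-SFD-1319 (245 FPM), the lymphocyte markers in KO-SFD-1319 and WT-HFD-1442, and the adipocyte markers in WT-SFD-1309.

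Lymphocyte markers moved with these aortic values. Of 10 T cell markers 7 were tested, with Cd4 the most abundant at a mean of 1.44 FPM. Cd3d, Cd3e and Cd3g lie on chromosome 9, whose genes were all listed at 0, and could not be read. The T cell markers summed to 3.13, 3.89 and 4.90 FPM in WT-SFD and to 21.1, 6.81 and 10.0 FPM in KO-SFD aortae. The B cell markers (7 of 8 in the table, 7 tested; Cd22 the most abundant with a mean of 3.46 FPM) summed to 4.77, 5.53 and 7.64 FPM in WT-SFD and to 35.1, 11.5 and 28.3 FPM in KO-SFD. On SFD 7 of 7 T cell and 7 of 7 B cell genes were higher in KO and 0 of either passed, with median log2 fold changes of 2.00 and 2.42. In WT-HFD aortae the T cell sums were 11.2, 3.21, 7.18 and 4.21 FPM and the B cell sums 33.5, 4.01, 17.4 and 8.68 FPM. In KO-HFD aortae they were 2.32, 10.4, 3.99 and 5.19 FPM for T cells and 3.54, 15.3, 2.56 and 5.46 FPM for B cells, so that the genotypes overlapped on HFD. There 7 of 7 B cell genes were lower in KO (median log2 fold change -1.46) and 3 of 7 T cell genes were higher (median -0.14), and 0 of either passed. The part of lymphocytes in the Ptprc and Itgax values was not tested. Adipocyte markers, which the fat around the vessel carries, were high in WT-SFD-1309 and WT-SFD-1310 as well as KO-SFD-1319, and with their mean as a covariate 0 of 9 genes passed and the log2 fold changes for KO against WT on SFD were 1.44 for Itgam, 3.10 for Itgax and 1.47 for Ptprc.

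For KO against WT on HFD, 0 of 9 genes were called (0.0811% of all genes; 0 by DESeq2), 0 of 9 had an unadjusted p under 0.05 against 5.35%, and 0 of 9 did not overlap against 4.18%. Ptprc was at 26.1, 8.02, 13.1 and 10.5 FPM in WT and at 4.76, 32.3, 9.42 and 8.19 FPM in KO, a log2 fold change of -0.06 (95% CI -1.21 to 1.08). Itgax was at 1.02, 0.502, 0 and 0.638 FPM in WT and at 0.488, 4.50, 0.559 and 0.273 FPM in KO. The single high KO value of both genes was KO-HFD-1503. Without it the log2 fold change was -0.94 for Ptprc (adjusted p 0.993, edgeR), that of Lyz2 went from 0.19 to -0.15 and that of Itgam from 0.59 to -0.20, and 1 of 8 genes (Gpnmb, -0.61) had an unadjusted p under 0.05, against 5.06% of all genes in that fit. Without WT-HFD-1442 it was 0.39 for Ptprc (adjusted p 0.982), and 2 of 9 genes (Cd68 and Cd163) had an unadjusted p under 0.05, against 5.92%.

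The lists of other macrophage genes gave no call in the aorta. On SFD 16 of 17 genes of macrophage identity were higher in KO, 0 passed and 10 of 17 did not overlap, against 8.57% of all genes, with a median log2 fold change of 0.79 against -0.03 over all genes. C1qb, a chain of complement C1q made by macrophages, was at 8.71, 11.4 and 11.1 FPM in WT-SFD and at 22.0, 17.9 and 18.8 FPM in KO-SFD (log2 fold change 0.91, adjusted p 0.708). All 3 KO-SFD aortae were thus above the WT-SFD range, with the 2 aortae other than KO-SFD-1319 included. Those 2 aortae also differed from WT-SFD in library make-up. Genes of small RNA classes took 20.8 and 20.5% of their counts, against 31.2, 28.4 and 28.5% in WT-SFD and 29.6% in KO-SFD-1319. Their TMM factors were 1.12 and 1.24, against 0.880, 0.934 and 0.903 in WT-SFD and 0.961 in KO-SFD-1319. On HFD C1qb was at 14.8, 15.4, 8.64 and 8.94 FPM in WT and at 12.7, 33.4, 15.7 and 14.1 FPM in KO. The list counts on HFD were 14 of 17 higher in KO and 0 passed. Of the partner genes 0 of 11 passed for KO against WT on SFD, with a median log2 fold change of 0.94. Resident (0 of 13), lipid-associated (0 of 14) and inflammatory genes (0 of 5) had no call in any of the 4 comparisons, with median log2 fold changes of 0.30, -0.23 and 0.04 for KO against WT on SFD. In the lipid-associated list Lpl had a log2 fold change of -3.59 on HFD in WT (adjusted p 0.0674), in step with the adipocyte list, whose median was -3.64 there. Cybb and Cx3cr1, widely used macrophage markers, were listed at 0 in every library of both tissues, as was every gene of chromosome 9, and were not analysed here.

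The genes varied together in part. Over the 14 aortae all 36 pairs had a positive Pearson r of log2 CPM (median 0.34), and 11 of 36 passed at an adjusted p under 0.05 (permutation test, 100000 resamples, two-sided, Benjamini-Hochberg over 72 pairs of both tissues), 5 of 36 also by Spearman rho. The closest pair was Itgam and Itgax (r = 0.95, rho = 0.89, permutation p 1.0e-05, the smallest the resamples can give, adjusted p 7.2e-04). Without KO-SFD-1319 and KO-HFD-1503 its r was 0.82, whereas that of Itgax and Ptprc (r = 0.75, rho = 0.76, permutation p 0.00227, adjusted p 0.0149) went to 0.28. The rho of Itgax and Ptprc passed over all 14 aortae (permutation test, adjusted p 0.0392), and it was not computed without those aortae. Over the 16 kidneys 28 of 36 pairs had a positive r (median 0.44), 13 of 36 passed by Pearson and 3 of 36 by both, and Itgam and Itgax reached r = 0.52 (rho = 0.56, permutation p 0.0424, adjusted p 0.113; 0.32 without the 2 farthest). Cd68 and Gpnmb, both lysosomal, had r = 0.72 (rho = 0.65, permutation p 0.00197, adjusted p 0.0142; 0.67 without the 2 kidneys farthest from the median of Cd68). Cd163 ran against Mrc1 in the kidney (r = -0.65, rho = -0.69, permutation p 0.00719, adjusted p 0.0336; -0.64 without the 2 farthest), on the few counts of Cd163. The libraries of these correlations span 4 groups, so that shared group differences enter them.

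Outside the 9, the genes whose log2 CPM followed the mean z score of the 9 most closely were named as a description. In the aorta they were Runx1 and Ctss (Pearson r 0.89 each), Lcp1, BC048403 and Lilrb4 (0.88 each) over 14 libraries and 14787 genes. In the kidney they were Selplg (0.92), Bin2 (0.91), Itgb2, Basp1 and Abcb4 (0.90 each) over 16 libraries and 15025 genes. Itgb2, which pairs with the products of Itgam and Itgax, was thus among the 5 closest in the kidney.

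Label numbers were shared by a few aortae and kidneys. The aorta KO-SFD-1319 had the highest Ptprc of all aortae (54.1 FPM), and the kidney of that number the lowest of all kidneys (4.90 FPM). The kidney KO-HFD-1504 had the highest Lyz2 and Ptprc of all kidneys (123 and 30.5 FPM), and the aorta of that number had 47.9 and 9.42 FPM, below KO-HFD-1503 for both. A high value in an organ was thus not matched in the other organ of the same number, in these 2 cases. WT-SFD-1309, the other shared number, had 9.67 FPM of Ptprc in aorta, the lowest of its group, and 9.26 FPM in kidney. No label says that an equal number marks the same mouse.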

How the data were processed

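Per the study's methods, the authors trimmed reads (cutadapt), aligned them to GRCm38/mm10 (Bowtie2 and TopHat) and counted them per gene (featureCounts), with TMM and edgeR for their own comparisons; the strand setting was not given in the sources used here. The deposited values are raw counts per gene. Every value here was computed from these counts: FPM is the count per 1000000 of library total times TMM factor, divided by GENCODE vM21 exon length where given per kb. Genes on chromosomes 9, X, Y and part of 8 were at 0 and were not analysed. Each tissue was fitted once with edgeR 4.0.16 in R 4.3.3 (filterByExpr, TMM, quasi-likelihood, 1 coefficient per group); a call is an adjusted p under 0.05 over 14796 aorta or 15034 kidney genes. The 5 comparisons per tissue were the diet effect in each genotype, the genotype effect on each diet, and how far the diet effect differed between KO and WT. Correlations of log2 CPM were tested by permutation (scipy 1.17.1). Library numbers differ within a group and the study counts n in animals, so each library was taken as 1 mouse, although the labels do not say so; the WT-SFD and KO-SFD aortae had 3 libraries each here, where the study gives 4 animals per group. Alternatives were DESeq2 1.42.0, other normalisations, filters and fits, and each library left out. Genes were named from the 9 members, list genes that passed (at most 3 per list and comparison, smallest p first) or otherwise the one with the smallest p, the most abundant marker of other cells, the 5 closest genes by r, and Egfr; Csf1r, the C1q genes, Mertk, and list genes given in a further comparison were named as examples after their values were seen, and 1 list gene that the rule names is not reported here. Members and lists were chosen with earlier results of these data known. The procedure was tested on simulated data.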

Additional observations from a re-analysis of the deposited data

Results flagged for a closer look

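In groups of 4 libraries, 54 sets of values (9 genes in 6 groups) were searched for a library far from the other 3, and 7 were found. The limit used is passed by about 1 in 20 sets of independent, normally distributed values. The 9 genes varied together in part, so that rate may not hold here. In the KO-HFD aortae, KO-HFD-1503 lay above the other 3 for Lyz2 (89.8 FPM, others 41.7 to 47.9), Itgam (18.1, others 4.03 to 5.67), Itgax (4.50, others 0.273 to 0.559) and Ptprc (32.3, others 4.76 to 9.42). In the kidneys, KO-SFD-1303 stood out for Itgam (3.71 FPM, others 1.13 to 1.47), KO-SFD-1451 for Itgax (6.11, others 3.77 to 4.10) and WT-SFD-1694 for Ptprc (17.2, others 8.92 to 9.27). Of these 7, 4 were in KO-HFD-1503. Groups of 3, KO-SFD with the aorta KO-SFD-1319 among them, were not searched.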

How the results depend on the processing

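The direction of the fold changes of the 9 genes was kept in 326 of 344 values in aorta and 284 of 301 in kidney under other normalisations, filters and tests, and in 596 of 625 and 655 of 720 with 1 library left out. The counts with 1 library left out include comparisons in which the group of that library takes no part. There the direction could hardly change, so these counts overstate how stable it was. The number of aortic members called was 0 under every alternative run, including DESeq2, RLE, totals without TMM, no filter, the older quasi-likelihood fit, only the groups compared, the adipocyte covariate and each library left out. For HFD against SFD in WT kidney the count was 1 and fell to 0 at an adjusted p under 0.001, with only the groups compared (Itgax adjusted p 0.0963) and without the 2 kidneys richest in lymphocyte markers, the last chosen after seeing the data; with a library left out it was 0 to 1. In KO kidney it was 0, but 2 with DESeq2, and 0 to 1 with a library left out: Itgax passed without WT-HFD-1535 or KO-SFD-1451. The difference of the Itgax diet effect between genotypes ran from -0.30 to 0.04 with a library left out, and reversed to 0.04 without KO-SFD-1451. The background moved more: DESeq2 called 666 genes against 0 for the diet in WT aorta, 263 against 145 in WT kidney and 695 against 360 in KO kidney, and edgeR called 630 in WT aorta without KO-SFD-1319. The causes were not tested. No paired analysis was possible because the groups compared within a tissue share no library numbers in the labels. Depth limits Itgax and Trem2 in aorta and Cd163 and Gpnmb in kidney, with as few as 0 counts in an aorta and 3 in a kidney.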
